A study of Macaca mulatta with 52 samples.

Results

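Lysosomal enzyme and activator genes are described here in whole single embryos of the rhesus monkey (Macaca mulatta) before implantation. The 9 genes were taken by symbol from the count table and are 9 of its 26309 identifiers: the activator genes PSAP and GM2A, the hexosaminidase gene HEXA, the cathepsin genes CTSB, CTSD and CTSL, the sterol carrier gene NPC2 and the membrane glycoprotein genes LAMP1 and LAMP2. The set was chosen by symbol, with the counts known, for levels that were higher at later stages in both library kits, and PSAP and GM2A were selected on the size of that difference. Values of these 9 genes between stages are therefore a description, given without p-values, and nothing is read from their calls. The comparisons of delayed with expanded blastocysts and of the kits were not used in the choice and are tested. All 9 genes passed the filter on low counts in each fit.

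Lysosomes are acidic compartments in which hydrolases break down proteins, sugars, nucleic acids and lipids that arrive by endocytosis or autophagy. Glycolipids are poor substrates for soluble enzymes, so small activator proteins lift them out of the membrane and present them to their hydrolase. The preimplantation embryo inherits organelles and messenger RNA from the oocyte, and its outer cells later take up material from their surroundings by endocytosis.

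The embryos came from FSH-stimulated females; oocytes matured in vivo after hCG, were inseminated in vitro and were cultured with or without the hormone relaxin, which the labels used here do not assign to embryos. Cumulus cells were pipetted off before RNA extraction. No strain, allele or donor was labelled. Each library was a whole embryo, and groups were delayed blastocysts (2 libraries), expanded blastocysts (14), morulas (11) and 8-cell embryos (9) made with the SPIA kit, which amplifies cDNA linearly from a chimeric primer, and expanded blastocysts (6), morulas (3) and 8-cell embryos (4) made with SoLo, a low-input kit that removes ribosomal sequences after library amplification. Embryos are named by stage and title number, such as morula 022916_01, and 2 SoLo blastocysts whose columns could be matched by group only are called 111215_a and 111215_b.

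Totals ran from 600966 to 21044692 counts in SPIA libraries and from 5696436 to 10571608 counts in SoLo libraries. Levels are CPM, read counts scaled to a common library size, with TMM factors that correct for composition. Markers of the oocyte and 8-cell embryo summed to a median of 1108, 215 and 179 CPM in SPIA 8-cell embryos, morulas and expanded blastocysts (11 of 13 listed genes were named), and trophectoderm markers to 267, 259 and 1133 CPM (10 of 12). No stage label went against these lists at the group level. Morula 022916_01 stood nearest to blastocysts: its SoLo library held 1814 CPM of trophectoderm and 4285 CPM of primitive endoderm markers, against at most 395 and 483 CPM in the other SoLo morulas. In 3 of the 8-cell embryos (020816_06, 020816_07 and 112815_02), earlier results of these data had found markers of cumulus cells, the somatic cells around the oocyte. Cumulus and granulosa markers (12 of 16 named, none at 0 in the group) summed to 439 to 2265 CPM in those SPIA libraries and to 43.1 to 219 CPM in the other 8-cell embryos. Title codes differed between blastocysts and the earlier stages, so code and stage cannot be told apart there. Only code 020816 held both morulas and 8-cell embryos.

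The 9 genes together took a larger share of the counts at each later stage. Their summed level had a median of 529 CPM in SPIA 8-cell embryos (184 to 947 CPM), 1069 CPM in morulas (460 to 2071 CPM) and 2634 CPM in expanded blastocysts (923 to 3929 CPM). In SoLo the medians were 630, 1624 and 6343 CPM. In the edgeR quasi-likelihood fit, 6 of the 9 genes were called higher in expanded blastocysts than in 8-cell embryos in SPIA, where 12.9% of all genes tested were called higher, and 9 of 9 in SoLo, where 18.6% were. At the first step 5 were called higher in SPIA (9.06% of all genes) and 5 in SoLo (9.78%), and at the second 4 in SPIA (4.71%) and 1 in SoLo (0.113%). No member was called lower at any step, where 10.3%, 9.95% and 23.7% of all genes were in SPIA (first step, second step and both together) and 6.92%, 1.03% and 19.8% in SoLo. Ranges of CPM did not overlap for 1, 0 and 4 of the 9 in SPIA (0.0835%, 0.0257% and 1.18% of all genes) and for 5, 4 and 8 in SoLo (11.5%, 6.12% and 17.9%). The choice of genes fixed these counts, so nothing is read from them. These are whole embryos, and levels are relative to the rest of each library. A larger fraction of expressing cells cannot be told apart from a larger share of these RNAs per cell.

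The step at which the change came differed among the genes. GM2A, CTSL, NPC2 and LAMP1 had their larger log2 difference between the 8-cell embryo and the morula in both kits. PSAP, CTSD and LAMP2 had theirs between the morula and the expanded blastocyst in both kits. CTSB had its larger difference in the second step in SPIA. In SoLo its first step was the larger, at 2.67 ± 0.68 against 1.97 ± 0.68. Without morula 022916_01 the SoLo steps were 1.11 and 3.54, so the second was the larger. HEXA had differences under 1 at both steps in both kits. In the first step the 9 log2 differences had a median of 1.34 in SPIA and 1.66 in SoLo, against -0.14 and -0.06 over all genes tested. In the second step the medians were 1.52 and 1.02, against -0.29 and 0.05 over all genes. The genes were chosen for higher levels at later stages, so nothing is read from this contrast with all genes. In voom, where the median of all genes at the second SPIA step was 0.41, the difference at that step was 4.51 for CTSD, 3.89 for CTSB, 3.26 for GM2A, 2.24 for NPC2, 1.99 for HEXA and 1.48 for CTSL.

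**Figure D1:**
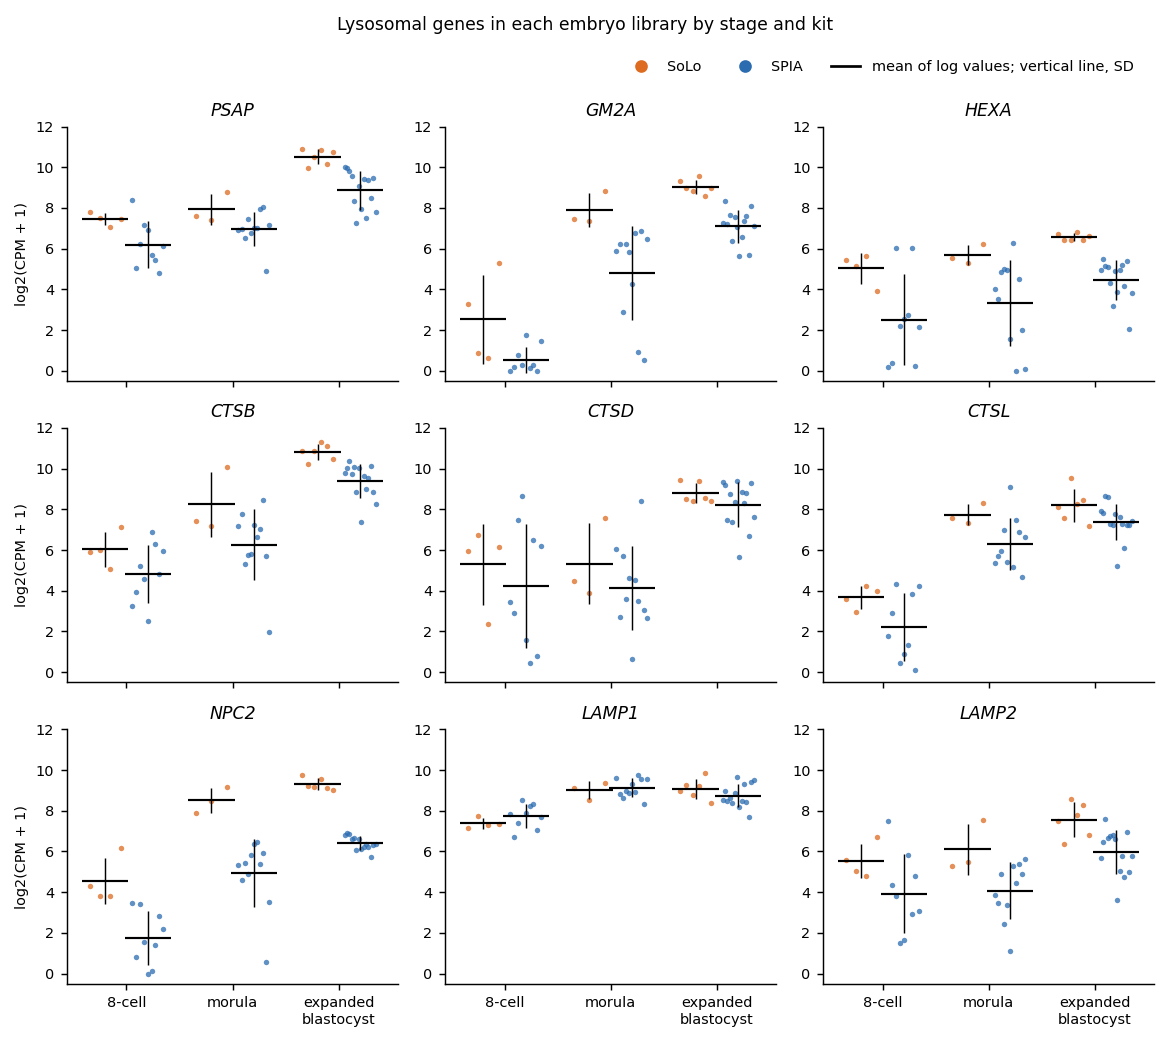
Level of each of the 9 genes as log2(CPM + 1) in every SoLo (orange) and SPIA (blue) library at the 8-cell, morula and expanded blastocyst stage. Horizontal lines are means of the log values and vertical lines SD; GM2A lies under 2 in all 9 SPIA 8-cell libraries, while LAMP1 lies above 6 in every library.

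**Figure D2:**
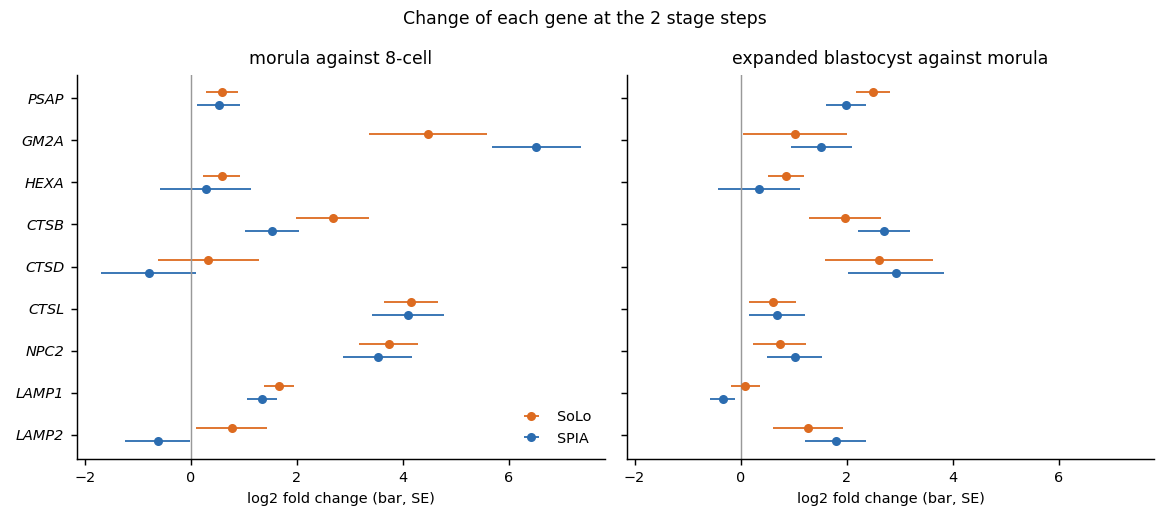
Log2 fold change with its standard error for each gene at both stage steps, in SoLo (orange) and SPIA (blue). GM2A, CTSL and NPC2 lie above 3 in the left panel, and PSAP, CTSB and CTSD lie near or above 2 in the right panel.

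PSAP (ENSMMUG00000012969) encodes prosaposin, which is cut in the lysosome into the saposins, the activators of hydrolases that include galactosylceramidase, arylsulfatase A, alpha-galactosidase A and acid ceramidase. In SPIA its level had a median of 69.9 CPM in 8-cell embryos (26.8 to 331 CPM), 127 CPM in morulas (28.7 to 265 CPM) and 601 CPM in expanded blastocysts (154 to 1044 CPM). In SoLo, 8-cell embryos had 134, 177, 180 and 223 CPM. SoLo morulas had 167, 192 and 439 CPM, and SoLo expanded blastocysts had 1005 to 1881 CPM with a median of 1584 CPM. All 6 SoLo blastocysts lay above all 7 earlier embryos, whereas in SPIA 10 of 14 blastocysts lay above the highest morula. The log2 difference of expanded blastocysts from morulas was 1.98 ± 0.38 (SE) in SPIA and 2.50 ± 0.32 in SoLo. Morulas differed from 8-cell embryos by 0.52 ± 0.40 in SPIA and 0.58 ± 0.30 in SoLo, and their ranges overlapped in both kits. The SoLo value was 0.01 without morula 022916_01.

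GM2A (ENSMMUG00000022869) encodes the GM2 activator, which presents ganglioside GM2 to hexosaminidase A. It was close to the counting floor in SPIA 8-cell embryos, with a median of 0.227 CPM, a highest value of 2.32 CPM and 2 of 9 libraries at 0, where a count of 0 allows up to 0.397 CPM in embryo 011516_02 and 0.277 CPM in 112815_01. SPIA morulas had a median of 57.6 CPM, but the range of 0.453 to 114 CPM was wide. SPIA expanded blastocysts had 48.0 to 325 CPM with a median of 150.3 CPM, and all 14 were above every 8-cell embryo. SoLo 8-cell embryos had 0.566, 0.853, 8.60 and 38.5 CPM. The 3 SoLo morulas had 162, 177 and 461 CPM, and expanded blastocysts had 377 to 747 CPM with a median of 507 CPM. The SPIA morulas were divided: 022916_02 and 022416_03 had 0.453 and 0.866 CPM, below the highest 8-cell embryo, and the other 9 had 6.51 to 114 CPM. Morulas differed from 8-cell embryos by 6.51 ± 0.84 log2 units in SPIA and 4.47 ± 1.11 in SoLo, and expanded blastocysts from morulas by 1.52 ± 0.58 and 1.02 ± 0.98. The SoLo value of that second step was 1.67 without morula 022916_01. The highest SoLo 8-cell value, 38.5 CPM, came from embryo 112815_02, which had 1.74 CPM in its SPIA library. The SoLo difference of morulas from 8-cell embryos was 6.32 without it.

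HEXA (ENSMMUG00000046622) encodes the alpha subunit of hexosaminidase A, the enzyme that the GM2 activator serves. SPIA 8-cell embryos had 0.132 to 65.3 CPM with a median of 3.63 CPM, morulas 0 to 77.6 CPM with a median of 15.2 CPM, and expanded blastocysts 3.16 to 43.2 CPM with a median of 29.1 CPM. These 3 ranges overlap, and the log2 difference of expanded blastocysts from 8-cell embryos was 0.62 ± 0.83 in SPIA, or 2.51 in voom. The spread narrowed with stage: the SD was larger than the mean in SPIA 8-cell embryos (16.3 ± 27.3 CPM, n = 9) and morulas (19.9 ± 22.6 CPM, n = 11), and smaller in expanded blastocysts (25.0 ± 12.6 CPM, n = 14). In SoLo, 8-cell embryos had 14.3, 34.4, 42.7 and 48.9 CPM, morulas had 37.7, 45.6 and 73.9 CPM, and expanded blastocysts had 83.4 to 111 CPM. The SoLo blastocysts lay above all earlier SoLo embryos, with a log2 difference of 1.43 ± 0.31 from 8-cell embryos.

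CTSB (ENSMMUG00000019212) encodes cathepsin B, a cysteine protease. Its median in SPIA was 27.3 CPM in 8-cell embryos (4.64 to 116 CPM), 97.7 CPM in morulas (2.87 to 356 CPM) and 814 CPM in expanded blastocysts (165 to 1312 CPM). No expanded blastocyst was as low as the highest 8-cell embryo in SPIA. SoLo 8-cell embryos had 32.4, 58.3, 63.6 and 140.0 CPM and expanded blastocysts had 1204 to 2515 CPM with a median of 1861 CPM. Between them the SoLo morulas split: 021016_03 and 021016_02 had 145 and 172 CPM, while 022916_01 had 1092 CPM, close to the lowest blastocyst. Morulas differed from 8-cell embryos by 1.53 ± 0.51 log2 units in SPIA and by 2.67 ± 0.68 in SoLo. The SPIA value was 0.80 in voom, and the SoLo value was 1.11 without morula 022916_01. Expanded blastocysts differed from morulas by 2.70 ± 0.49 in SPIA and by 1.97 ± 0.68 in SoLo, or by 3.54 in SoLo without that morula.

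CTSD (ENSMMUG00000003874) encodes cathepsin D, an aspartic protease, and varied widely among early embryos. SPIA 8-cell embryos had 0.365 to 402 CPM with a median of 9.79 CPM, morulas 0.584 to 334 CPM with a median of 11.2 CPM, and expanded blastocysts 50.3 to 676 CPM with a median of 379 CPM. The 3 8-cell embryos with cumulus markers had 72.9, 178 and 402 CPM, and the other 6 had 0.365 to 90.3 CPM with a median of 4.28 CPM. In SoLo the same 3 embryos had 60.1, 71.0 and 106 CPM, and 020816_08, the SoLo 8-cell embryo with the lowest cumulus marker sum (39.8 CPM), had 4.19 CPM. The part of cumulus cells in these CTSD levels was not tested. Without the 3 embryos the SPIA log2 difference of morulas from 8-cell embryos was 1.26, against -0.80 ± 0.90 with them, and that of expanded blastocysts from 8-cell embryos was 4.21, against 2.13 ± 0.93 with them. SoLo morulas had 13.9, 21.2 and 192 CPM, the last in 022916_01, and SoLo expanded blastocysts had 334 to 690 CPM. SoLo morulas differed from 8-cell embryos by 0.33 ± 0.96; without morula 022916_01 the value was -1.77 in SoLo and -2.07 in SPIA. Expanded blastocysts differed from morulas by 2.93 ± 0.90 in SPIA and by 2.61 ± 1.02 in SoLo, and without morula 022916_01 by 4.21 and 4.72.

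CTSL (ENSMMUG00000017609) encodes cathepsin L, another cysteine protease, and was the one member whose SPIA morulas did not overlap 8-cell embryos; 0.0835% of all genes tested were higher without overlap at that step. SPIA 8-cell embryos had 0.0924 to 19.4 CPM with a median of 2.38 CPM, morulas 24.3 to 547 CPM with a median of 61.3 CPM, and expanded blastocysts 36.6 to 396 CPM with a median of 164 CPM. SoLo 8-cell embryos had 6.73, 10.9, 14.7 and 17.5 CPM, and SoLo morulas had 161, 186 and 317 CPM. The SoLo expanded blastocysts had 146 to 738 CPM with a median of 289 CPM and overlapped the morulas. The first step measured 4.10 ± 0.68 log2 units in SPIA and 4.15 ± 0.51 in SoLo, and the second 0.69 ± 0.53 and 0.60 ± 0.44. The highest SPIA value of any stage was in a morula, 021016_04, with 547 CPM. Within code 020816 the first step measured 2.97 in SPIA.

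NPC2 (ENSMMUG00000006563) encodes the soluble lysosomal protein that binds cholesterol and hands it to the membrane protein NPC1. SPIA 8-cell embryos had 0 to 9.93 CPM with a median of 1.93 CPM, morulas 0.494 to 87.9 CPM with a median of 41.4 CPM, and expanded blastocysts 51.4 to 119 CPM with a median of 81.5 CPM. Only morula 022916_02 lay within the 8-cell range in SPIA. SoLo 8-cell embryos had 13.0, 13.0, 18.9 and 71.9 CPM, morulas 236, 358 and 566 CPM, and expanded blastocysts 521 to 857 CPM with a median of 588 CPM. Morulas and 8-cell embryos did not overlap in SoLo. The first step measured 3.52 ± 0.65 log2 units in SPIA and 3.73 ± 0.56 in SoLo, and the second 1.02 ± 0.52 and 0.74 ± 0.50. The SoLo value of the first step was 4.68 without 8-cell embryo 112815_02, which had the 71.9 CPM. SPIA blastocysts spanned 2.31-fold between lowest and highest, the narrowest span of the 9 genes in that group. NPC1, not one of the 9, averaged 89.9 ± 26.5 CPM in SPIA expanded blastocysts and 58.3 ± 42.9 CPM in 8-cell embryos and was not called there (log2 0.63 ± 0.46, adjusted p = 0.295, edgeR). In SoLo it rose by 1.43 ± 0.33 (adjusted p = 0.0031), with 207 ± 34.5 CPM in expanded blastocysts and 76.9 ± 42.1 CPM in 8-cell embryos.

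LAMP1 (ENSMMUG00000009790) encodes a heavily glycosylated protein that lines the inner face of the lysosomal membrane. It was detected in every library, and its difference lay in the first step. SPIA 8-cell embryos had 103 to 373 CPM with a median of 232 CPM, morulas 316 to 861 CPM with a median of 492 CPM, and expanded blastocysts 206 to 797 CPM with a median of 379 CPM. SoLo 8-cell embryos had 140, 157, 160 and 215 CPM, morulas 368, 555 and 668 CPM, and expanded blastocysts 334 to 933 CPM with a median of 543 CPM. The log2 difference of morulas from 8-cell embryos was 1.34 ± 0.28 in SPIA and 1.66 ± 0.29 in SoLo. Expanded blastocysts differed from morulas by -0.34 ± 0.24 in SPIA and by 0.09 ± 0.27 in SoLo, and the groups overlapped.

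LAMP2 (ENSMMUG00000001484) encodes the second such glycoprotein, one of whose forms serves as receptor in chaperone-mediated autophagy. Its SPIA morulas had 1.17 to 48.4 CPM with a median of 20.6 CPM and did not stand above the 8-cell embryos, which had 1.81 to 178 CPM with a median of 12.9 CPM. SPIA expanded blastocysts had 11.4 to 189 CPM with a median of 71.1 CPM. SoLo 8-cell embryos had 27.1, 31.7, 46.6 and 103 CPM, morulas 38.5, 43.1 and 185 CPM, and expanded blastocysts 81.3 to 379 CPM with a median of 201 CPM. The log2 difference of morulas from 8-cell embryos was -0.63 ± 0.61 in SPIA and 0.77 ± 0.67 in SoLo, and -0.35 in SoLo without morula 022916_01. Its sign also turned in SPIA, to 0.62 in limma's voom fit and to 0.30 within code 020816. Expanded blastocysts differed from morulas by 1.79 ± 0.58 in SPIA and by 1.27 ± 0.66 in SoLo, or by 2.40 in SoLo without that morula. Over both steps the difference was 1.15 ± 0.60 in SPIA, or 2.67 in voom, and 2.04 ± 0.61 in SoLo.

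Single embryos stood apart in several genes at once. Morula 022916_01 was the highest SoLo morula in 9 of 9 genes and the highest SPIA morula in 4 of 9. In 8 of 9 it lay, in both kits, above the mean log level of the morulas that had a library of each kit, itself included. Its sums of trophectoderm, primitive endoderm and epiblast markers were also the highest of the morulas in both kits, and their part in these levels was not tested. Morula 022916_02, the deepest library, was lowest in 5 of 9 genes and had the highest morula sums of oocyte markers, 1252 CPM, and of cumulus markers, 49.7 CPM. Expanded blastocyst 111715_05, the shallowest library, was lowest in 5 of 9 genes. The part of depth in this was not tested.

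No difference between delayed and expanded blastocysts was detectable in any of the 9 genes with 2 delayed embryos. PSAP had 265 and 424 CPM in the delayed blastocysts, against 154 to 1044 CPM with a median of 601 CPM in the expanded ones. CTSB had 224 and 881 CPM, against 165 to 1312 CPM, and CTSD had 130 and 229 CPM, against 50.3 to 676 CPM. NPC2 was the one gene in which a delayed embryo, 112515_01 with 171 CPM, exceeded all 14 expanded blastocysts; the other had 115 CPM. In edgeR the 9 log2 differences ran from -1.05 ± 1.66 for CTSD to 0.73 ± 0.89 for NPC2, with an adjusted p of 1 in each, and 8 of the 9 were negative. Their median was -0.32, beside -0.24 over all 15578 genes tested. The 95% interval of PSAP's difference was -2.08 to 0.70 and that of GM2A -2.07 to 2.04. No gene of the whole table was called by edgeR (0%), with 196 at an unadjusted p under 0.05, and DESeq2 called 22, none of them among the 9. Ranges that did not overlap with delayed higher were found for 0.706% of all genes and none of the 9. Sums of trophectoderm and primitive endoderm markers lay within the expanded range but below its median. They were 380 and 811 CPM for trophectoderm (178 to 1800 CPM in expanded blastocysts, median 1133 CPM). For primitive endoderm they were 945 and 1807 CPM (747 to 5676 CPM, median 3791 CPM). Epiblast sums, 471 and 491 CPM, lay within the expanded range and above its median (146 to 681 CPM, median 387 CPM). Log2 differences were negative in 8 of 10 trophectoderm genes tested (median -1.11) and 10 of 10 primitive endoderm genes (median -1.69), none called. They were negative in 3 of 5 epiblast genes (median -0.26), none called, and in 9483 of all 15578 genes tested. Code 112515, that of the delayed blastocysts, held only 112515_03 and 112515_04 of the expanded ones. Against these the delayed ones differed by 0.56 for CTSB, 1.40 for HEXA and 0.37 for LAMP2, the opposite sign from the difference over all codes. Embryo 112515_03 had the lowest HEXA of all expanded SPIA blastocysts, 3.16 CPM. A difference between codes was not tested.

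**Figure D3:**
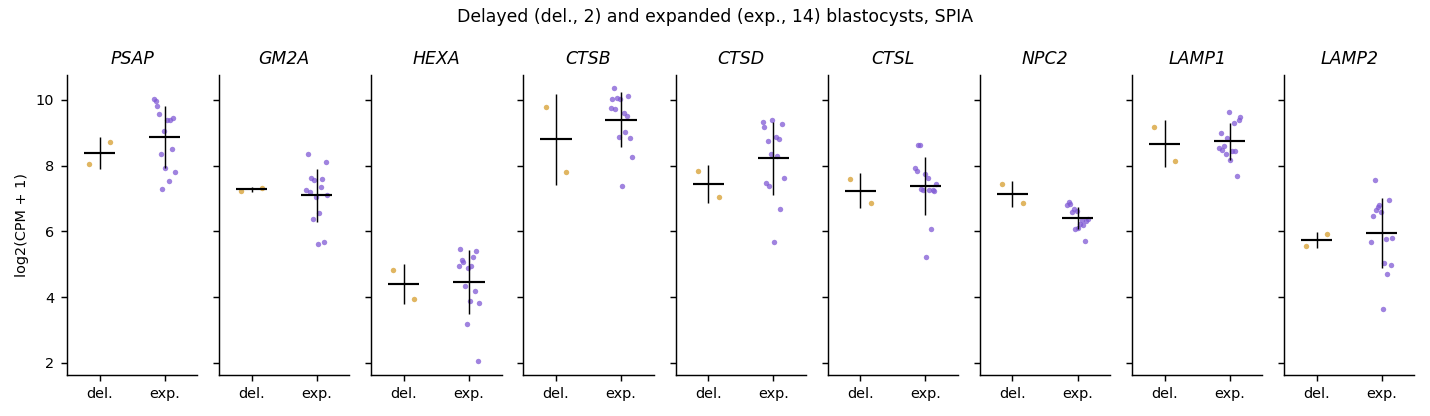
Level of each gene as log2(CPM + 1) in the 2 delayed and 14 expanded blastocysts of the SPIA kit; points are libraries, horizontal lines means of the log values and vertical lines SD. The delayed embryos lie within the expanded range in every gene except NPC2, where 1 of the 2 lies above it.

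Measured levels of 3 of the 9 genes differed between kits in the main fit, which had stage and not the embryo as covariate. The same 11 embryos (4 expanded blastocysts, 3 morulas and 4 8-cell embryos) had a library of each kit, and 18.5% of all genes tested were called between kits, 8.58% higher and 9.87% lower in SoLo. No member's CPM ranges were free of overlap between kits, as 1.18% of all genes were with SoLo higher. NPC2 was higher in SoLo in 11 of 11 embryos, at 261 ± 211 CPM in SoLo and 72.8 ± 61.0 CPM in SPIA (SD over embryos of all stages, both kits scaled together), a log2 difference of 1.90 ± 0.39 (adjusted p = 0.0011, edgeR). LAMP2 was higher in SoLo in 11 of 11, at 105 ± 91.7 CPM in SoLo and 55.9 ± 63.5 CPM in SPIA, by 1.36 ± 0.43 (adjusted p = 0.0263). LAMP1 went the other way in 11 of 11, at 325 ± 193 CPM in SoLo and 642 ± 313 CPM in SPIA, by -1.08 ± 0.20 (adjusted p = 0.000232). In fits without the embryo as a block, the LAMP2 call was lost without 8-cell embryo 020816_08 (adjusted p = 0.0510) or 112815_02 (adjusted p = 0.0623). All 3 genes were called over the 11 embryos with the embryo as a block, LAMP2 at 1.51 ± 0.28 (adjusted p = 0.00021, edgeR). With the embryo as a block, CTSD was called too, at -1.27 ± 0.29 (adjusted p = 0.00354), against -1.67 ± 0.73 (adjusted p = 0.126) without the block; it was lower in SoLo in 9 of 11 embryos.

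The other genes were not called between kits in the main fit. PSAP differed by 0.00 ± 0.22, with a 95% interval of -0.43 to 0.43, and was higher in SoLo in 5 of 11 embryos. CTSB differed by 0.32 ± 0.42, CTSL by -0.17 ± 0.48 and HEXA by 0.33 ± 0.40. With the embryo as a block, CTSB differed by 0.40 ± 0.15 (adjusted p = 0.0547, edgeR), still not called. It was higher in SoLo in 9 of 11 embryos. Without 8-cell embryo 020816_06, HEXA was called higher in SoLo, at 0.99 ± 0.32 (adjusted p = 0.034, edgeR). GM2A was higher in SoLo in 10 of 11 embryos, by 1.28 ± 0.54 (adjusted p = 0.111, edgeR), and DESeq2 called it (adjusted p = 0.0280). The embryos also kept their order between kits unevenly. Each was set against the mean log level of the embryos of its stage among these 11, itself included. An embryo fell on the same side in both kits for LAMP2 in 10 of 11 embryos and for CTSB in 9, but for HEXA in 2.

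**Figure D4:**
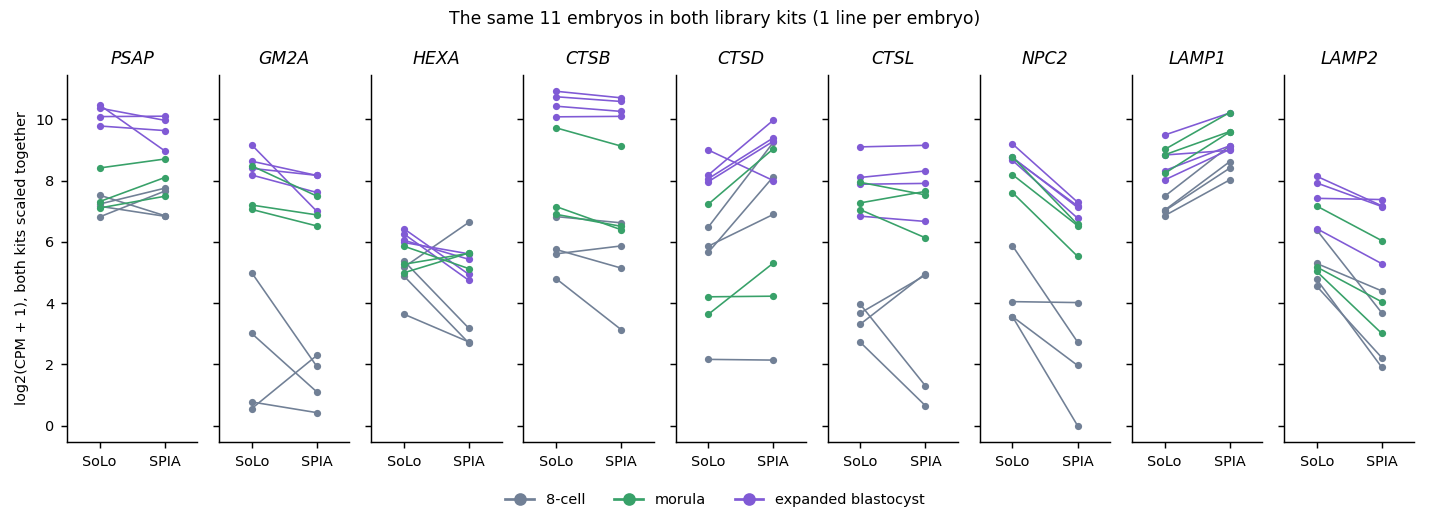
Level of each gene as log2(CPM + 1) in SoLo (left) and SPIA (right) libraries of the same 11 embryos, 1 line per embryo, coloured by stage. The SoLo end is the higher one in every line for NPC2 and LAMP2, and the SPIA end in every line for LAMP1.

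Across libraries the 9 genes varied together to different degrees. The correlation of each gene's log2(CPM + 1) with the mean of the other 8 over the 34 SPIA libraries of the 3 stages was 0.864 for NPC2, 0.854 for GM2A, 0.811 for CTSB, 0.803 for CTSL and 0.775 for PSAP, and lower for CTSD (0.682), HEXA (0.503), LAMP1 (0.462) and LAMP2 (0.424). Over the 13 SoLo libraries it ran from 0.763 for HEXA to 0.988 for CTSB. These values are a description: the libraries share stages and kits, and the genes were chosen for a common direction. Among 6142 other named genes with a mean of at least 10 CPM, those with the pattern most like the mean of the 9 were KRT18, a keratin of simple epithelia (r = 0.923 over SPIA and 0.954 over SoLo libraries), LRP2, the endocytic receptor megalin (0.914 and 0.969), LAMC1, a laminin chain of basement membranes (0.913 and 0.979), PRCP, a lysosomal carboxypeptidase (0.904 and 0.907), and PROM1, a membrane glycoprotein of cell protrusions (0.904 and 0.960). KRT18 and LRP2 stand in the trophectoderm and primitive endoderm marker lists. Those lists rose with stage too, with 7 of 10 and 6 of 10 genes tested called higher, and 1 of each lower, in SPIA expanded blastocysts than in 8-cell embryos. Of all genes tested, 12.9% were called higher and 23.7% lower there. Their part in the levels of the lysosomal genes was not tested.

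Macrophages and other blood cells are rich in lysosomal RNA, so blood and immune markers (10 of 12 named) were read beside the 9 genes. They summed to 5.69 to 32.2 CPM in SPIA expanded blastocysts, 1.46 to 77.2 CPM in morulas and 17.4 to 637 CPM in 8-cell embryos, and to 5.15 to 20.5 CPM in SoLo expanded blastocysts. PTPRC, the pan-leukocyte marker, was at 0 in all SPIA and SoLo expanded blastocysts, and also in all SPIA 8-cell embryos. Other markers of the list were present. The highest mean in expanded blastocysts was that of TYROBP in SPIA (6.93 CPM) and of CSF1R in SoLo (6.035 CPM). In SPIA 8-cell embryos it was that of CSF1R (88.6 CPM). The part of blood cells in the levels of the 9 genes was not tested. The highest sum, 637 CPM, was in 8-cell embryo 020816_09, which had the lowest CTSD of its group and the highest CTSB.

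Other genes of the lysosome were set beside the 9, and for them the stage comparisons are tested. The lists held 161 named genes in 9 groups, of which 154 were tested in SPIA and 151 in SoLo. In expanded blastocysts against 8-cell embryos, 41 of 154 rose and 19 fell in SPIA (39.0% called, against 36.6% of all genes), and 49 of 151 rose and 19 fell in SoLo (45.0% called, against 38.4%). Their median log2 difference was 0.28 in SPIA and 0.69 in SoLo, beside -0.43 and -0.05 over all genes tested. The shares of all genes called in that comparison were 12.9% higher and 23.7% lower in SPIA and 18.6% higher and 19.8% lower in SoLo. Morulas against 8-cell embryos gave 20 higher and 9 lower in SPIA (19.4% of all genes were called), but 2 calls in all when only the compared groups entered the fit and 0 within code 020816. Expanded blastocysts against morulas gave 11 higher and 10 lower in SPIA (14.7%), and 49 calls in voom. In SoLo the first step gave 17 higher and 10 lower (16.7%), and the second 2 higher and 3 lower (1.14%); these 5 calls became 0 to 36 on leaving out 1 library, with 36 without morula 022916_01. No gene of the lists was called between delayed and expanded blastocysts by edgeR or DESeq2.

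**Figure D5:**
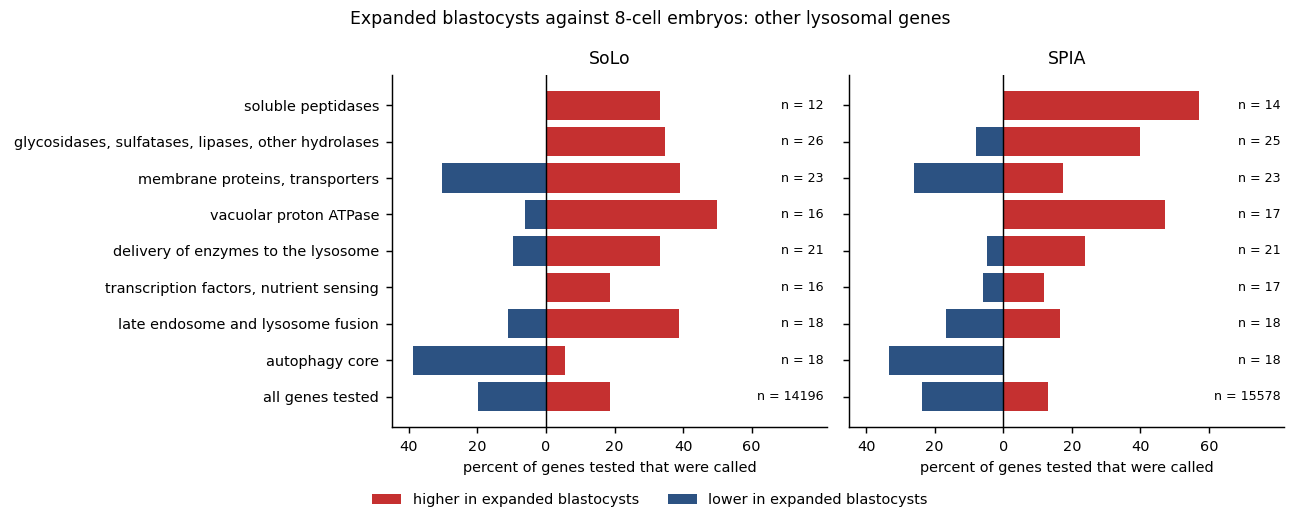
Percent of the genes tested in each lysosomal list that were called higher (red, to the right) or lower (blue, to the left) in expanded blastocysts than in 8-cell embryos, in SoLo (left panel) and SPIA (right panel), with all genes tested at the bottom. Peptidases, hydrolases and proton pump subunits lie mainly to the right and autophagy core genes mainly to the left in both kits.

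Soluble peptidases rose in 8 of 14 and fell in none in SPIA, where 12.9% of all genes tested rose, and rose in 4 of 12 in SoLo, where 18.6% did. PRCP, the carboxypeptidase named above, averaged 200 ± 73.7 CPM in SPIA expanded blastocysts and 2.86 ± 4.27 CPM in 8-cell embryos (log2 6.11 ± 0.99, adjusted p = 1.39e-05, edgeR), and it rose in SoLo by 4.57 ± 1.22 (adjusted p = 0.0129). CTSF and CTSZ, genes of cathepsins F and X, were called in SPIA with a mean of 1.26 and 1.48 CPM in expanded blastocysts and of 0.0092 and 0.0276 CPM in 8-cell embryos, under the floor of 3 counts, and were not called in SoLo. In SPIA the CTSF call was lost in DESeq2, and in SoLo CTSF was called without 8-cell embryo 020816_06 and CTSZ without morula 022916_01. CSTB, an inhibitor of cysteine cathepsins and the one cystatin tested, rose by 1.56 ± 0.42 in SPIA (adjusted p = 0.0034) and by 1.65 ± 0.26 in SoLo (adjusted p = 0.000152).

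The hydrolases that work with the saposins moved in more than one way. GALC, galactosylceramidase, rose by 3.40 ± 0.97 in SPIA (adjusted p = 0.0054, edgeR) and by 2.70 ± 0.82 in SoLo (adjusted p = 0.0178), a call that was lost without 8-cell embryo 020816_06 or 112815_02. ASAH1, acid ceramidase, rose by 1.86 ± 0.74 in SPIA (adjusted p = 0.0455), a call that was lost without the 3 embryos with cumulus markers and with no filter on low counts, and by 3.73 ± 0.66 in SoLo (adjusted p = 0.000908). ARSA, arylsulfatase A, rose in SoLo by 4.68 ± 0.91 (adjusted p = 0.000821) and had a log2 difference of 2.94 ± 1.43 in SPIA (adjusted p = 0.103), where it was called in voom and without the 3 embryos with cumulus markers. GLA, alpha-galactosidase A, fell in SPIA to a mean of 24.9 CPM in expanded blastocysts, against 86.8 CPM in 8-cell embryos, where the highest library had 501 CPM (log2 -1.81 ± 0.71, adjusted p = 0.0419); the call was lost in DESeq2, with DESeq2 size factors and with only the compared groups, the sign turned in voom, and SoLo gave -0.39 ± 0.46 (adjusted p = 0.530). In the whole list of glycosidases, sulfatases, lipases and other hydrolases, 10 of 25 rose and 2 fell in SPIA (12.9% and 23.7% of all genes). In SoLo 9 of 26 rose (18.6%). MANBA, beta-mannosidase, rose in SPIA (adjusted p = 0.0453), a call that was lost without 8-cell embryo 020816_09, and IDS, iduronate sulfatase, fell by 2.66 on the log2 scale (SE 0.76, adjusted p = 0.0055); neither was called in SoLo, although MANBA was without 8-cell embryo 020816_06 and IDS was in DESeq2.

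The vacuolar proton ATPase, which acidifies the lysosome, had 8 of 17 subunit genes higher and none lower in SPIA (12.9% and 23.7% of all genes). In SoLo 8 of 16 were higher and 1 lower (18.6% and 19.8%). ATP6V1B1, a catalytic-sector subunit known from acid-secreting cells, averaged 60.3 ± 48.0 CPM in SPIA expanded blastocysts and 1.29 ± 2.13 CPM in 8-cell embryos (log2 5.58 ± 1.13, adjusted p = 0.000183, edgeR), and it rose in SoLo by 7.28 ± 1.34 (adjusted p = 0.0016). ATP6AP2, an accessory subunit, rose by 3.60 in SPIA (SE 0.76, adjusted p = 0.000317) and ATP6V1C1, a subunit of the cytosolic sector, by 3.67 ± 0.90 (adjusted p = 0.0015). Both were called in SoLo as well, at 4.25 ± 0.95 and 3.28 ± 0.87.

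Of the membrane proteins and transporters, 4 of 23 were higher and 6 lower in SPIA (12.9% and 23.7% of all genes), and 9 of 23 higher and 7 lower in SoLo (18.6% and 19.8%). CTNS, the cystine exporter, and TPCN2, an endolysosomal cation channel, rose by 4.12 ± 1.15 and 5.05 ± 1.17 in SPIA and by 2.34 ± 0.50 and 3.40 ± 0.95 in SoLo. LAMP3, a relative of LAMP1 and LAMP2, fell to 2.32 ± 3.31 CPM in SPIA expanded blastocysts, against 66.1 ± 107 CPM in 8-cell embryos (log2 -5.01 ± 1.11, adjusted p = 0.000549, edgeR), and by 4.23 in SoLo (SE 1.33, adjusted p = 0.0213), a call that was lost without 8-cell embryo 020816_07. It thus went the other way from LAMP1, which stood 1.00 ± 0.27 higher at the same comparison in SPIA.

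Genes that deliver enzymes to the lysosome included IGF2R, a mannose 6-phosphate receptor. It rose to 215 ± 76.9 CPM in SPIA expanded blastocysts, against 28.9 ± 24.3 CPM in 8-cell embryos (log2 2.89 ± 0.62, adjusted p = 0.000364, edgeR). In SoLo it rose by 3.56 ± 0.36 (adjusted p = 3.17e-06). AP1M1, an adaptor subunit, fell in both kits, by 3.15 in SPIA (SE 1.19), a call that was lost in voom, and 2.73 in SoLo (SE 0.56). SUMF1, which activates sulfatases, rose in SPIA by 4.50 ± 1.30 (adjusted p = 0.0057) and was not called in SoLo (adjusted p = 0.122), except without 8-cell embryo 112815_02. In this list 5 of 21 rose and 1 fell in SPIA (12.9% and 23.7% of all genes), and 7 of 21 rose and 2 fell in SoLo (18.6% and 19.8%).

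TFEB, TFE3 and MITF are transcription factors that drive lysosomal genes. TFEB was called higher in SPIA (log2 5.99 ± 1.55, adjusted p = 0.0024, edgeR) at a mean of 4.49 CPM in expanded blastocysts and 0.0521 CPM in 8-cell embryos, under the counting floor, where a fitted fold depends on the prior count, and was not called in SoLo (2.35 ± 1.25, adjusted p = 0.146), except without 8-cell embryo 020816_07. TFE3 had log2 differences of -0.87 ± 0.73 in SPIA and 0.99 ± 0.47 in SoLo, and MITF of -0.44 ± 0.70 and -0.71 ± 0.62, none of them called by edgeR. In DESeq2 the SPIA difference of TFE3 was positive and called, and in SoLo TFE3 was called without 8-cell embryo 112815_02. RRAGD, a small GTPase of nutrient sensing at the lysosome, was called higher in both kits, with a mean of 3.44 CPM in SPIA expanded blastocysts and 0.0338 CPM in 8-cell embryos, under the same floor. RRAGB, its relative, was called lower in SPIA at -2.99 ± 1.09 (adjusted p = 0.0276), a call that was lost in voom, and not in SoLo (adjusted p = 0.112), where DESeq2 called it. In the list, 2 of 17 rose and 1 fell in SPIA (12.9% and 23.7% of all genes), and 3 of 16 rose in SoLo (18.6%). The shares that rose were near those of all genes.

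Among autophagy core genes, 6 of 18 fell and none rose in SPIA, and 7 of 18 fell and 1 rose in SoLo. ULK2, a kinase that starts autophagy, averaged 39.0 ± 15.2 CPM in SPIA expanded blastocysts and 144 ± 106 CPM in 8-cell embryos (log2 -1.89 ± 0.40, adjusted p = 0.000312, edgeR), with -1.60 ± 0.24 in SoLo (adjusted p = 8.73e-05). PIK3C3, the class III lipid kinase, differed by -1.55 ± 0.37 in SPIA and -1.67 ± 0.28 in SoLo, both called. ATG16L1, which helps place LC3 on membranes, differed by -1.83 ± 0.68 in SPIA, a call that was lost in voom and without the 3 embryos with cumulus markers, and was called lower in SoLo too (adjusted p = 0.0020). The share of genes called lower in this list, 33.3% in SPIA, stands beside 23.7% of all genes tested. In SoLo the 7 of 18 stand beside 19.8%. Called higher were 12.9% of all genes in SPIA and 18.6% in SoLo.

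Of the genes of late endosome and lysosome fusion, 3 of 18 were higher and 3 lower in SPIA (12.9% and 23.7% of all genes), and 7 of 18 higher and 2 lower in SoLo (18.6% and 19.8%). RAB7A, the late endosome GTPase, was lower in SPIA expanded blastocysts (-1.26 ± 0.30, adjusted p = 0.0010) but was not called in SoLo (-0.20 ± 0.19, adjusted p = 0.440). Its level also differed between kits in the same embryos, by -2.42 ± 0.17 (adjusted p = 2.59e-11). VAMP8 and VPS18, which act in membrane fusion, were called higher in SPIA and not in SoLo; VAMP8 was under the floor in SPIA 8-cell embryos, and VPS18 differed by 2.71 ± 0.78 in SPIA.

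Between kits, 11 of 152 other lysosomal genes tested were higher and 12 lower in SoLo than in SPIA (15.1% called, against 18.5% of all genes).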

How the data were processed

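Per the labels' protocols, RNA of each embryo was extracted, and libraries were made with the SPIA or SoLo kit. The deposited table holds raw counts, whole numbers for each Ensembl identifier and library. The tools HISAT2 and DESeq2 are named per the submitters' processing notes. Which program counted reads, on which build and whether by strand is not given in the sources used here; reads of overlapping, antisense or near-identical genes may therefore be mixed. Of 52 columns, 49 matched a sample; 3 matched none and were not used, and 3 samples had no column. Gene names came from a table of identifiers and symbols and covered 15078 identifiers; no genome was used.

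Counts were fitted in R 4.3.3 with edgeR 4.0.16 (TMM, filterByExpr, robust quasi-likelihood test, Benjamini-Hochberg adjustment over all genes tested; called at an adjusted p under 0.05). One fit held the 4 SPIA groups and another the 3 SoLo groups; kits were compared over 11 embryos with stage as a covariate. Each standard error is the log2 fold change over the root of F. CPM are given per library or as mean ± SD, with a floor of 3 counts per library. Reads carry no molecular identifiers, so floors cover counting error only. DESeq2 1.42.0, limma 3.58.1 (voom), other filters and scalings, and left-out libraries were alternatives. Python 3.11.15, pandas 2.3.3, numpy 2.4.6 and matplotlib 3.10.9 made summaries and figures.

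The members, the gene lists and the tests were chosen with earlier results of these data known. Other lysosomal genes were named by rule: up to 3 per list with the largest change in SPIA expanded blastocysts against 8-cell embryos among genes called there with the same sign in SoLo, up to 2 called in the opposite direction, and TFEB, TFE3, MITF and enzyme partners whatever their values. Some genes that the rule names are not reported here. Same-numbered embryos of both kits are the same embryo; over the 11 pairs, deviations from stage means correlated with a median r of 0.177 (lowest -0.0181), and 10 of 11 correlated best with their own partner. Libraries of a group are labelled as separate embryos, and no pair agreed within sampling noise (lowest chi-square per gene 16.8). No label says that embryos came from different parents, so p-values measure the spread between these embryos. The fit was tested on simulated counts: for morula against 8-cell in SPIA (14769 genes), 19% of genes changed by 2 log2 units and 60% of those changed by 4 were recovered. Of each size 100 genes were planted, and 10 unchanged genes were called as well.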

Additional observations from a re-analysis of the deposited data

Results flagged for a closer look

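Within groups of 4 to 10 libraries, 5 of 27 sets of values held a library far from the others (the gap to its nearest neighbour, over the whole range, passed Dixon's 95% value); chance flags about 1 in 20. In SPIA 8-cell embryos, 011516_02 stood apart with 331 CPM of PSAP and 178 CPM of LAMP2, and 020816_07, the embryo with the highest cumulus marker sum, with 402 CPM of CTSD. In SoLo, 8-cell embryo 112815_02 stood apart with 71.9 CPM of NPC2, and expanded blastocyst 111715_01 with 738 CPM of CTSL.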

How the results depend on the processing

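Of the recomputed differences of the 9 genes, 972 moved by less than the spread or, where tested, stayed on their side of the threshold, and 22 moved further. In the comparison of kits 3 gained a call and 2 lost one, and no called value changed sign. Differences of the 9 genes between stages were judged here by the size of the move and not by their calls. The counts of called genes depended more on the settings. For other lysosomal genes, morula against 8-cell in SPIA gave 29 calls and 19 with a stricter filter, 2 with the compared groups alone, 18 in voom blocked on title code and 0 within code 020816 (0 of the 9 genes there, against 5). Expanded blastocyst against morula in SPIA gave 21, and 49 in voom (7 of the 9 genes, against 4); in SoLo it gave 5, and 17 in DESeq2 (2 of the 9 genes, against 1). Leaving out 1 SoLo library at a time gave 0 to 36 for that step (36 without morula 022916_01, and 1 to 4 of the 9 genes), 21 to 40 (3 to 5 of the 9) for morula against 8-cell, and 55 to 78 (8 to 9) for expanded blastocyst against 8-cell. Without 8-cell embryo 020816_09 or without morula 022916_01 (that morula was left out of SPIA after seeing the data), SPIA counts were 24 to 25 (4 to 5 of the 9 genes) for morula against 8-cell, 28 to 29 (4 to 5) for expanded blastocyst against morula and 59 to 60 (6 to 7) for expanded blastocyst against 8-cell. With the replicate block on embryo, 28 other lysosomal genes and 4 of the 9 were called between kits, against 23 and 3, and CTSD was the only call among the 9 that the block changed; leaving out embryos gave 19 to 23 and 2 to 4. Delayed against expanded blastocyst gave 0 throughout. GLA turned sign in voom, to 0.22, in expanded blastocyst against 8-cell. The median log2 difference of all genes in that comparison in SPIA was -0.43 with TMM, -0.31 with DESeq2 size factors and 0.51 in voom; in expanded blastocyst against morula it was -0.29, -0.14 and 0.41. The cause was not tested. Depth limits values near the floor of 3 counts, above all GM2A, NPC2 and CTSL in SPIA 8-cell embryos.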
